A study of Homo sapiens with 6 samples.

Results

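The 38 genes described here build the N-glycan that is placed on proteins in the endoplasmic reticulum (ER), transfer it, trim it and read it out in the calnexin cycle. They were taken by symbol from a table of 18780 genes, in which all 38 had a row. The RNA came from cultured PC-3 cells, an established human line of advanced prostate cancer, grown in DMEM/F12 with 10% fetal bovine serum. Of 6 sequencing libraries, 3 are from cells given trans-Gnetin H (TGH), which is built of 3 units of resveratrol, for 24 h at 2.5 µM. The other 3, the controls, come from cultures that received dimethyl sulfoxide (DMSO), the solvent, for 24 h. The title states that the study is about depriving such cells of glucose with this compound, and the comparison asks how transcripts of a pathway that consumes sugars stood in treated cells. The labels speak of triplicates of 1 cell line and do not say whether these were separate cultures, so the p-values measure the spread between these libraries, which may be technical.

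N-glycosylation starts on dolichol phosphate, a lipid carrier in the ER membrane. ALG enzymes add sugars one at a time, first on the cytosolic face and then, after the carrier is flipped, on the lumenal face, with the lumenal sugars supplied by dolichol-linked mannose and glucose. Oligosaccharyltransferase moves the finished glycan to an asparagine of the growing protein, glucosidases then remove glucoses, and the lectins calnexin and calreticulin hold the glycoprotein while it folds. UGGT enzymes put a glucose back on misfolded glycoproteins and so return them to the lectins, and mannosidases time the exit to degradation or to the Golgi. Several genes of this pathway are known targets of the unfolded protein response, through the transcription factors ATF6 and XBP1.

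Values are TPM, a transcript's share of the library corrected for its length, so levels can be compared between genes, and a higher TPM is a larger share rather than more RNA per cell. In such bulk RNA a change in the mix of cells and a change in RNA per cell cannot be told apart. The values of the table summed to between 502380 and 518870 TPM per library, less than the whole that TPM is scaled to. Read depth is not known from TPM. DMSO replicates 1 and 2 listed 3074 and 3185 genes at exactly 0, against 1342 to 1530 in the other 4 libraries. None of the 38 genes was at 0 in any library, the lowest value being 2.58 TPM. All 5 epithelial markers were present, summing to between 1815 and 1900 TPM with DMSO and between 1487 and 1503 TPM with TGH. The lower sum came mainly from KRT8 (-0.51) and KRT18 (-0.45). EPCAM (-0.13) was also called lower, while CDH1 (0.07) and KRT19 (-0.09) were not called. The part of this lower sum in the results below was not tested. The 4 immune markers summed to at most 0.830 TPM and the 3 endothelial markers to at most 0.313 TPM, and of 5 fibroblast markers COL1A1 alone reached a mean of 1 TPM.

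Most of the 38 genes rose with TGH. Counted with limma at a Benjamini-Hochberg adjusted p under 0.05, 27 of 38 passed as higher and 1 as lower, and 10 were not called. Of all 12018 genes whose mean reached 1 TPM, 28.9% were called higher and 26.3% lower. The median difference over the 38 genes was 0.28 on the log2(TPM + 1) scale, beside 0.02 over all 12018. All 3 TGH values lay above all 3 DMSO values in 27 of the 38 genes, against 33.6% of all genes. They lay below in 3, against 30.8% of all genes. Most of these differences were modest: 6 of the 38 were called higher by at least 0.5 on the log2 scale, as were 7.29% of all genes. Left with DMSO replicate 3 as control, a single library assumed to vary like the TGH libraries, 27 members were again higher. Of these 25 were shared, and the calls of ALG14 and ALG9 were lost.

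**Figure D1:**
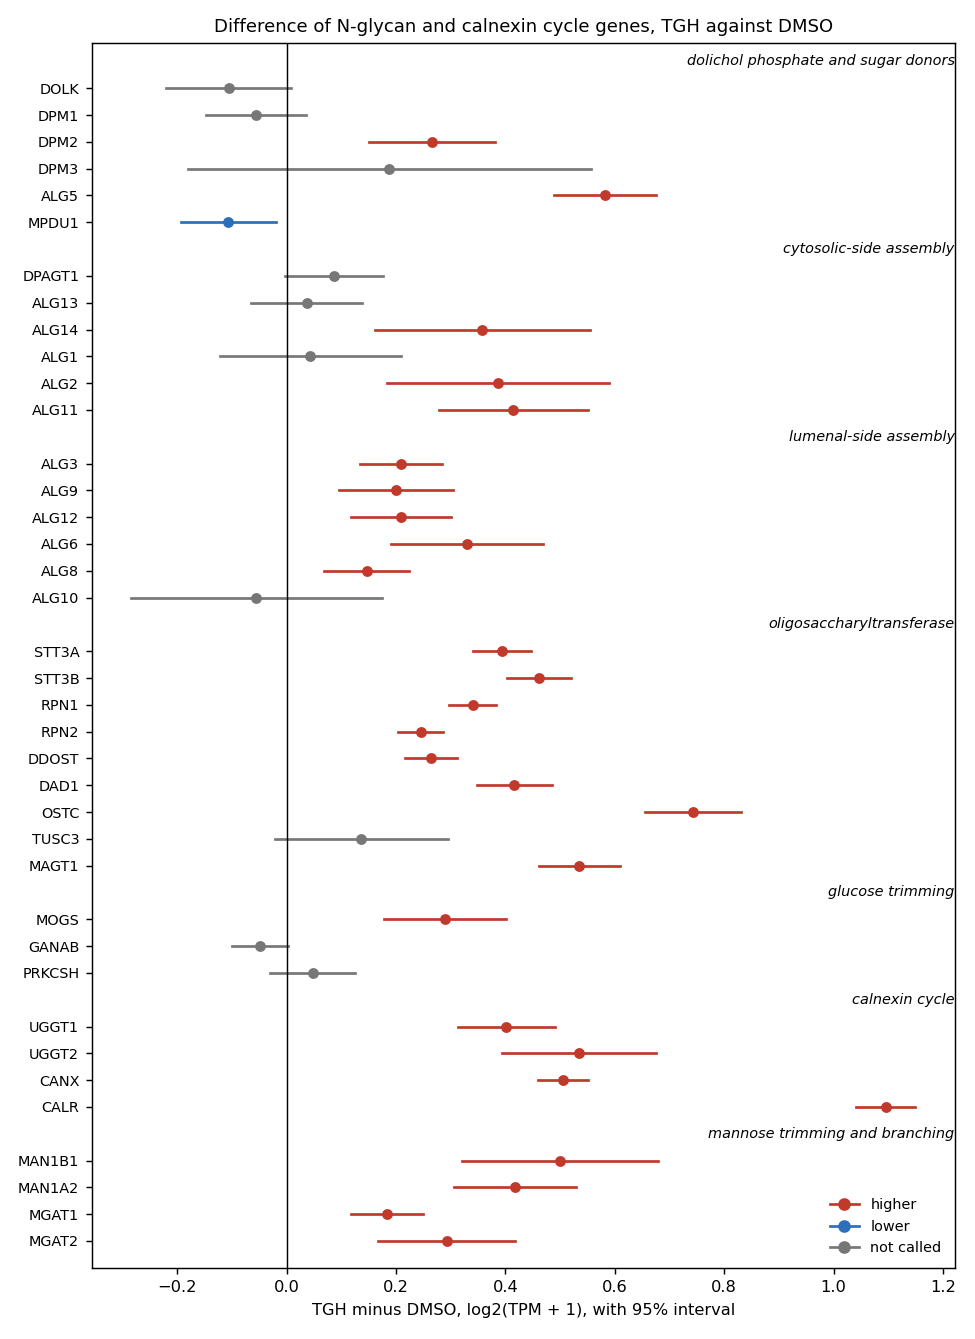
Difference between TGH and DMSO means (n = 3 each) on the log2(TPM + 1) scale for the 38 genes, grouped by role, with the 95% interval of the limma fit and the call at an adjusted p under 0.05 in colour. The points run from -0.11 for MPDU1 to 1.10 for CALR. Every gene of cytosolic-side assembly, oligosaccharyltransferase, the calnexin cycle and mannose trimming and branching lies to the right of 0.

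**Figure D2:**
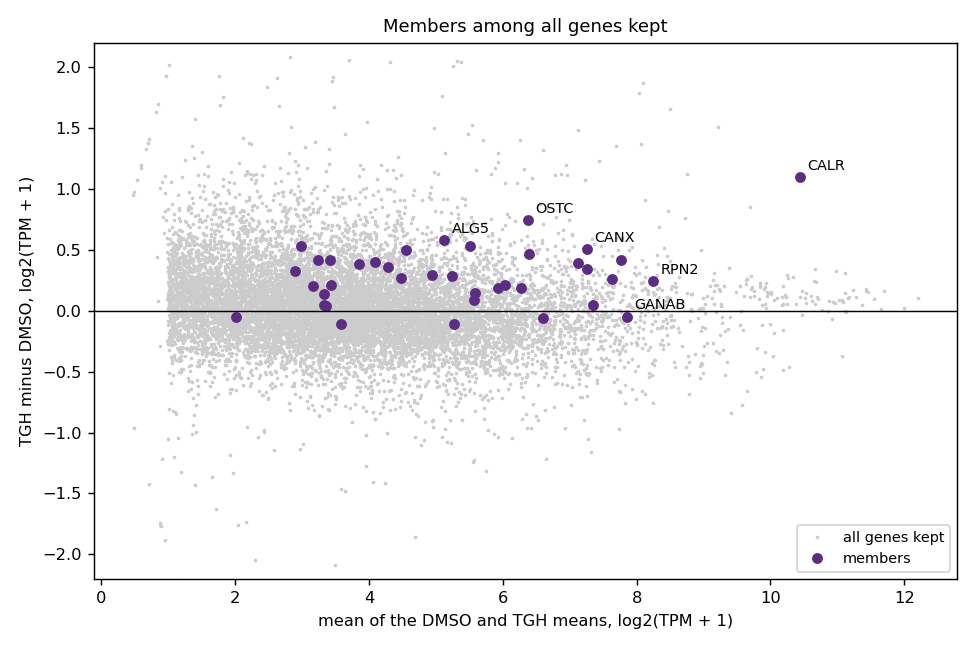
Difference between TGH and DMSO against mean level, both on the log2(TPM + 1) scale, for 12018 genes (grey) and the 38 members (purple). CALR and OSTC lie above the bulk of genes of their level, and 42 grey genes lie beyond the limits of 2.2 of the vertical axis.

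CALR, calreticulin, the soluble lectin chaperone of the ER lumen, was the most abundant of the 38 transcripts and the one with the largest rise. It stood at 916, 968 and 961 TPM in DMSO replicates 1 to 3 and at 2011, 2030.3 and 2037 TPM in TGH replicates 1 to 3. The groups were far apart, and the libraries of each group lay close together. The rise was 1.10 on the log2 scale (SE 0.023, limma adjusted p = 6.5e-07), or 2.14-fold, and 134 of the 12018 genes had a larger one. CANX, calnexin, its membrane-bound counterpart, went from 128, 129 and 126 TPM to 184, 180.3 and 181 TPM, without overlap. It rose by 0.51 (SE 0.019, limma adjusted p = 5.8e-06). Per CANX transcript there were 7.14, 7.53 and 7.63 CALR transcripts in DMSO and 10.96, 11.3 and 11.3 with TGH. For this and the other 6 ratios of related genes below, the exact two-sided permutation test gave p = 0.10, also after adjustment over the 7, which is the smallest value 3 against 3 libraries can give.

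UGGT1 and UGGT2, the glucosyltransferases that recognise misfolded glycoproteins, were much less abundant than the lectins. UGGT1 went from 13.6, 13.3 and 14.4 TPM to 18.6, 18.4 and 18.6 TPM. UGGT2, its paralogue, went from 5.72, 5.88 and 5.06 TPM to 8.80, 8.34 and 8.30 TPM. The groups did not overlap for either gene, and both rose, by 0.40 (SE 0.037, limma adjusted p = 0.00019) and 0.53 (SE 0.059, limma adjusted p = 0.00041). The ratio of UGGT2 to UGGT1 was 0.404 ± 0.047 in DMSO and 0.458 ± 0.014 with TGH (SD, n = 3 each). Added up, the 4 genes of the calnexin cycle went from 1095 ± 27.9 to 2235 ± 11.95 TPM (SD, n = 3 each), a sum made up mostly of CALR.

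Promoters of these genes were read for elements through which the unfolded protein response and the amino acid response are known to act, because CALR and CANX both rose. The sequences are those of RefSeq (GRCh38.p14), 300 bases from 250 before the gene's start, and 32 of the 38 genes matched by symbol. ALG10, MAN1A2, MOGS, RPN1, STT3B and TUSC3 did not match. The ER stress response element (ERSE) was searched on both strands as CCAAT and CCACG with 9 bases of any kind between them. Of the 32 promoters 3 held it, those of CALR, CANX and ALG12, against 22 of the 27305 promoters in the whole table (0.0806%). Among genes that reached a mean of 1 TPM the share was 0.148%, and among those of them called higher 0.443%. All 3 genes with the site were called higher, as were 23 of the 32. The search was prompted by the rises of CALR and CANX, and these shares were not tested. Read from CCAAT to CCACG, with these ends in capitals, the 3 sites differ in the spacer.
CALR: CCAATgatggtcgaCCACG
CANX: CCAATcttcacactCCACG
ALG12: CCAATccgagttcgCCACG
The sites of CANX and ALG12 run along the gene's own strand and end 132 and 115 bases before the start. That of CALR runs on the opposite strand, and its edge nearest the gene's start lies 206 bases before that start.

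The 3 promoters are given whole on the gene's strand, with the ERSE in capitals, to show how differently the same element is placed. CALR lies at chr19:12938359-12938658 on the plus strand, CANX at chr5:179698679-179698978 on the plus strand and ALG12 at chr22:49918389-49918688 on the minus strand.
CALR: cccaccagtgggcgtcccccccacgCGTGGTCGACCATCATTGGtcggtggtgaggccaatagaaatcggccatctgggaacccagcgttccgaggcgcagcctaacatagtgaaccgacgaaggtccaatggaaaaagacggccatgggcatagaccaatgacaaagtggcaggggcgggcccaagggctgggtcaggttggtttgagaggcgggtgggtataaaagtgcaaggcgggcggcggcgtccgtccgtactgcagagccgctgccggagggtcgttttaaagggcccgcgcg
CANX: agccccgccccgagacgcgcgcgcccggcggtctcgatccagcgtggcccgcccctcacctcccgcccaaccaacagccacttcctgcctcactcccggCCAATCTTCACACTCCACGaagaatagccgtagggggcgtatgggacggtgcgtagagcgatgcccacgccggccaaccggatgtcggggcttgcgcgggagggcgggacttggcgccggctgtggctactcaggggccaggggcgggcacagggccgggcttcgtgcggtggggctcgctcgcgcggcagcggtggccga
ALG12: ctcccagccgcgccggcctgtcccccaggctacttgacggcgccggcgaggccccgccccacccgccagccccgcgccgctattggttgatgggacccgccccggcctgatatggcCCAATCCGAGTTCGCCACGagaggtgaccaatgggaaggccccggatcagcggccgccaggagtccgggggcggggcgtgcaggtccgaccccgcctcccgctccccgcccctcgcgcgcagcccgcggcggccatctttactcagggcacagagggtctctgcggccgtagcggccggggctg
Another form of the element (ATTGG, 1 base, CCACG) was in 0 of the 32 promoters and in 15 of all 27305. The letters TGACGTGG, a core bound by XBP1 and ATF6, were in 0 of 32, in 0.795% of all and in 88 of 8794 promoters of genes that reached a mean of 1 TPM. An element of the amino acid response, TGATGNAA, was likewise in 0 of 32, in 3.67% of all and in 1.54% of promoters of genes that reached a mean of 1 TPM. All were searched on both strands, and no match in a member overlapped another. The other 20 matched genes that were called higher, OSTC and ALG5 among them, held none of these spellings in this window.

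Oligosaccharyltransferase rose nearly as a whole: 8 of its 9 genes were higher, beside 28.9% of all genes, and TUSC3 was not called. STT3A, the catalytic subunit of the form that works at the translocon, went from 123, 119 and 119 TPM to 159, 158 and 158 TPM. STT3B, the catalytic subunit of the form that acts later on skipped sites, went from 69.6, 70.2 and 71.7 TPM to 97.2, 95.8 and 99.5 TPM. No value overlapped between the groups, and the rises were 0.39 (SE 0.022, limma adjusted p = 2.4e-05) and 0.46 (SE 0.025, limma adjusted p = 2.0e-05). The ratio of STT3A to STT3B was 1.71 ± 0.060 in DMSO and 1.62 ± 0.030 with TGH (SD, n = 3 each), a difference of -0.07 on the log2 scale.

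The 2 largest rises of the complex were those of OSTC and MAGT1, which each belong to only one of its forms. OSTC, which ties the STT3A form to the translocon, went from 63.6, 61.5 and 63.7 TPM to 111, 105 and 102 TPM. It rose by 0.74 (SE 0.037, limma adjusted p = 1.6e-05), and 382 of the 12018 genes rose more. MAGT1, an oxidoreductase subunit of the STT3B form, went from 37.2, 38.005 and 35.9 TPM to 55.1, 53.9 and 53.1 TPM, a rise of 0.54 (SE 0.031, limma adjusted p = 2.7e-05). TUSC3, the paralogue that can take the place of MAGT1, was at 9.04, 7.94 and 8.76 TPM in DMSO and 9.61, 10.2 and 8.81 TPM with TGH. Its groups overlapped, and its difference of 0.14 was not called (95% interval -0.02 to 0.29, limma adjusted p = 0.12). The ratio of MAGT1 to TUSC3 accordingly stood at 4.11, 4.79 and 4.09 in DMSO and at 5.74, 5.30 and 6.03 with TGH.

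The subunits shared by both forms rose by less than OSTC. Subunits of a single form did not all rise by more than the shared ones: STT3A rose by 0.39, and TUSC3 was not called (0.14). DAD1, a small membrane subunit, rose by 0.42, from 188 ± 4.11 to 251 ± 7.66 TPM, and RPN1, ribophorin I, by 0.34, from 135 ± 1.05 to 171 ± 1.34 TPM. DDOST, another core subunit, rose by 0.26, from 179.9 ± 2.62 to 216 ± 2.63 TPM, and RPN2, ribophorin II, by 0.24, from 278 ± 2.11 to 330 ± 3.93 TPM (SD, n = 3 each, limma adjusted p at or below 8.2e-05 for all 4). RPN2 was the most abundant transcript of the complex, at 2.06 ± 0.0064 transcripts per RPN1 transcript in DMSO and 1.92 ± 0.033 with TGH. In DMSO the order of levels was TUSC3, MAGT1, OSTC, STT3B, STT3A, RPN1, DDOST, DAD1 and RPN2, from 8.58 to 278 TPM. No neighbours in this order shared values between libraries, the closest being DDOST at 177 to 182 TPM and DAD1 at 184 to 192 TPM.

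**Figure D3:**
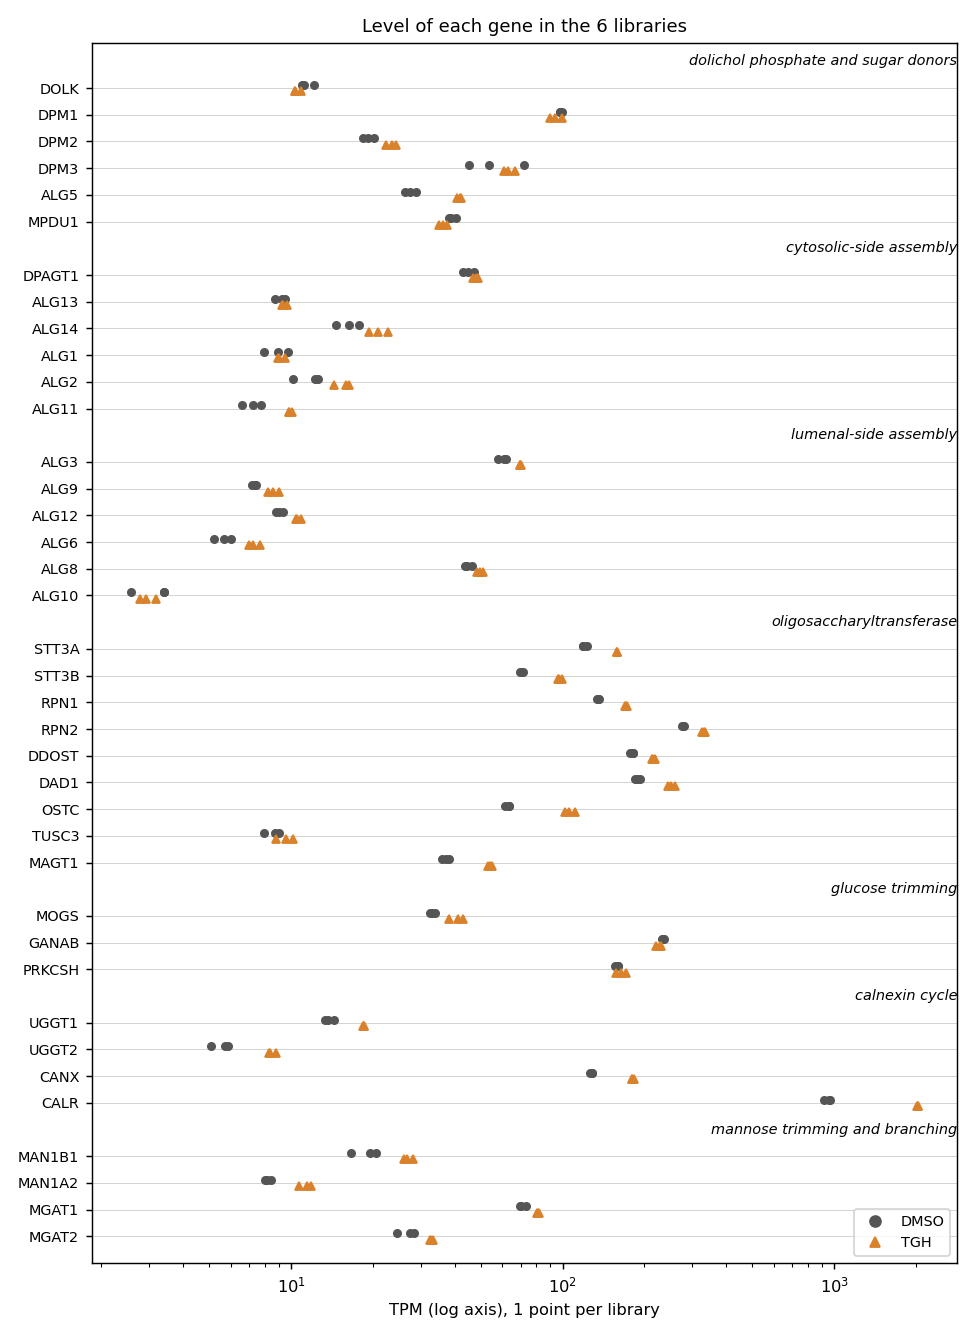
TPM of the 38 genes in each of the 6 libraries on a log axis, grouped by role, with DMSO as circles and TGH as triangles. Levels span from a DMSO mean of 3.13 TPM for ALG10 to one of 948 TPM for CALR. The TGH triangles of 8 of 9 oligosaccharyltransferase genes lie to the right of all DMSO circles, a separation that 33.6% of all 12018 genes had.

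Of the 12 genes whose enzymes build the glycan on its carrier, 8 rose, beside 28.9% of all genes called higher. On the cytosolic face 3 of 6 genes rose, or 50%, and 3 were not called. DPAGT1, which adds the first sugar to dolichol phosphate and is the target of tunicamycin, was at 47.0, 44.8 and 43.1 TPM in DMSO and 48.0, 46.6 and 48.6 TPM with TGH. The groups overlapped, with a difference of 0.09 (limma adjusted p = 0.093), which was called under 3 alternatives, such as without DMSO replicate 1 (0.12, adjusted p = 0.023). ALG13 and ALG14 together form the next enzyme, ALG13 holding the active site and ALG14 the membrane anchor. ALG14 rose by 0.36 (limma adjusted p = 0.0099), from 14.6, 16.3 and 17.8 TPM to 21.0, 22.8 and 19.4 TPM. ALG13 had 9.15 ± 0.400 and 9.41 ± 0.194 TPM (SD, n = 3 each), a difference of 0.04 with a 95% interval from -0.07 to 0.14.

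Of the mannosyltransferases of the cytosolic face, ALG2 and ALG11 rose. ALG1, which adds the first mannose, had 8.88 ± 0.885 and 9.15 ± 0.290 TPM (SD, n = 3 each), was not called (limma adjusted p = 0.62), and changed sign between alternatives. ALG2 went from 10.2, 12.3 and 12.6 TPM to 14.4, 16.3 and 15.9 TPM, a rise of 0.39 (limma adjusted p = 0.0081). ALG11 rose by 0.41 (limma adjusted p = 0.0011), from 7.77, 6.62 and 7.23 TPM to 9.86, 10.1 and 9.81 TPM. In the GENCODE 29 annotation 4100 exon bases of ALG11 are shared on the same strand with UTP14C, which fell by 0.50 (limma adjusted p = 0.0014), so how reads were divided between these 2 genes makes both values uncertain.

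On the lumenal face 5 of 6 genes were called higher, beside 28.9% of all genes. Each of these 5 rises was small, and 0 reached 0.5. The mannosyltransferases ALG3, ALG9 and ALG12 rose by 0.21, 0.20 and 0.21 (limma adjusted p from 0.0016 to 0.0080). ALG3 was the most abundant, at 57.6, 60.7 and 62.1 TPM in DMSO and 69.4, 70.0 and 69.6 TPM with TGH. Of the glucosyltransferases that finish the glycan, ALG6, which adds the first glucose, went from 5.64, 5.997 and 5.21 TPM to 7.66, 7.25 and 7.02 TPM. Its rise was 0.33 (limma adjusted p = 0.0032). ALG8, for the second glucose, rose by 0.15 (limma adjusted p = 0.0085), from 44.8 ± 1.39 to 49.7 ± 1.14 TPM (SD, n = 3 each). There were 8.004 ± 0.526 ALG8 transcripts per ALG6 transcript in DMSO and 6.81 ± 0.412 with TGH (SD, n = 3 each). ALG10, for the last glucose, was the rarest of the 38, at 3.41, 2.58 and 3.40 TPM in DMSO and 3.17, 2.78 and 2.93 TPM with TGH, and was not called (-0.06, limma adjusted p = 0.65). Reads of ALG10 may be shared with its close copy ALG10B (0.23, limma adjusted p = 0.074).

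Of the 6 genes that supply dolichol phosphate and dolichol-linked sugars 2 were called higher and 1 lower, shares of 33.3% and 16.7% that lie near the 28.9% and 26.3% of all genes. ALG5, which makes the dolichol-linked glucose that ALG6, ALG8 and ALG10 use, rose by 0.58 (SE 0.039, limma adjusted p = 5.0e-05). It stood at 26.3, 27.5 and 28.9 TPM in DMSO and at 41.7, 41.0 and 42.4 TPM with TGH, well apart. Of the 3 subunits of the dolichol-linked mannose synthase, 1 was called. Its catalytic subunit DPM1 was at 99.3, 98.0 and 97.4 TPM in DMSO and at 99.9, 90.1 and 93.6 TPM with TGH (-0.06, 95% interval -0.15 to 0.04, limma adjusted p = 0.25). Without TGH replicate 1 it was called lower (-0.10, adjusted p = 0.035). DPM2, a membrane subunit, rose by 0.27 (limma adjusted p = 0.0036), from 19.3 ± 0.909 to 23.4 ± 1.07 TPM (SD, n = 3 each). DPM3, the subunit that tethers DPM1, varied widely in DMSO, at 45.1, 71.8 and 53.4 TPM, against 61.1, 63.0 and 67.0 TPM with TGH. It was not called (0.19, limma adjusted p = 0.33), but without DMSO replicate 2 it was (0.37, adjusted p = 0.011).

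DOLK, which phosphorylates dolichol, and MPDU1, which is needed for the use of dolichol-linked sugars, were the 2 members furthest below 0 in difference. DOLK was at 10.97, 12.1 and 11.1 TPM in DMSO and 10.3, 10.9 and 10.3 TPM with TGH, a difference of -0.11 that was not called (limma adjusted p = 0.099) but was after median scaling and quantile normalization (both -0.14, adjusted p = 0.044). MPDU1 was at 40.5, 38.1 and 38.8 TPM in DMSO and 37.4, 35.1 and 36.2 TPM with TGH. It was the single member called lower, at -0.11 (SE 0.036, limma adjusted p = 0.042), and that call was lost in 8 of 17 alternatives (adjusted p from 0.055 to 0.17). Its exons overlap those of FXR2 and SOX15 on the other strand in the annotation. Such exon overlaps with any annotated gene exist for 12 of the 38, on the same strand for ALG1, ALG9, ALG11 and DDOST, and whether the authors counted by strand is not known.

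Of the 3 genes of the glucosidases that start trimming 1 was called higher, or 33.3%, near the 28.9% of all genes. MOGS, glucosidase I, rose by 0.29 (limma adjusted p = 0.0021), from 32.6, 34.0 and 32.9 TPM to 41.2, 43.0 and 38.1 TPM. GANAB, the catalytic subunit of glucosidase II, was at 233, 237 and 232 TPM in DMSO and 221, 229.7 and 229 TPM with TGH. Every TGH value was below every DMSO value, yet the difference of -0.05 was not called (95% interval -0.10 to 0.00, limma adjusted p = 0.096). After median scaling of the libraries it was called lower (-0.08, adjusted p = 0.023). PRKCSH, the other subunit of glucosidase II, was at 159.7, 159 and 156 TPM in DMSO and 157, 170.5 and 164 TPM with TGH, with overlap (0.05, limma adjusted p = 0.25). Under quantile normalization it was called higher (0.10, adjusted p = 0.035). The ratio of PRKCSH to GANAB was 0.676 ± 0.0070 in DMSO and 0.723 ± 0.017 with TGH (SD, n = 3 each). In sum the 3 glucosidase genes went from 426 ± 4.34 to 431 ± 12.1 TPM (SD, n = 3 each), within the spread of the libraries.

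All 4 genes of mannose trimming and of the first Golgi branching steps rose, beside 28.9% of all genes called higher. MAN1B1, the ER mannosidase I tied to the degradation of misfolded glycoproteins, rose by 0.50 (SE 0.075, limma adjusted p = 0.0015), from 16.6, 20.5 and 19.5 TPM to 26.2, 28.1 and 26.8 TPM. MAN1A2, a Golgi mannosidase I, rose by 0.42 (limma adjusted p = 0.00043), from 8.18, 8.04 and 8.46 TPM to 11.9, 11.4 and 10.7 TPM. MGAT1, which starts the first branch of complex glycans, rose by 0.18 and MGAT2, which starts the second, by 0.29 (limma adjusted p = 0.0016 and 0.0035). MGAT1 went from 71.1 ± 2.14 to 80.9 ± 0.686 TPM and MGAT2 from 26.8 ± 1.95 to 32.9 ± 0.453 TPM (SD, n = 3 each).

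**Figure D4:**
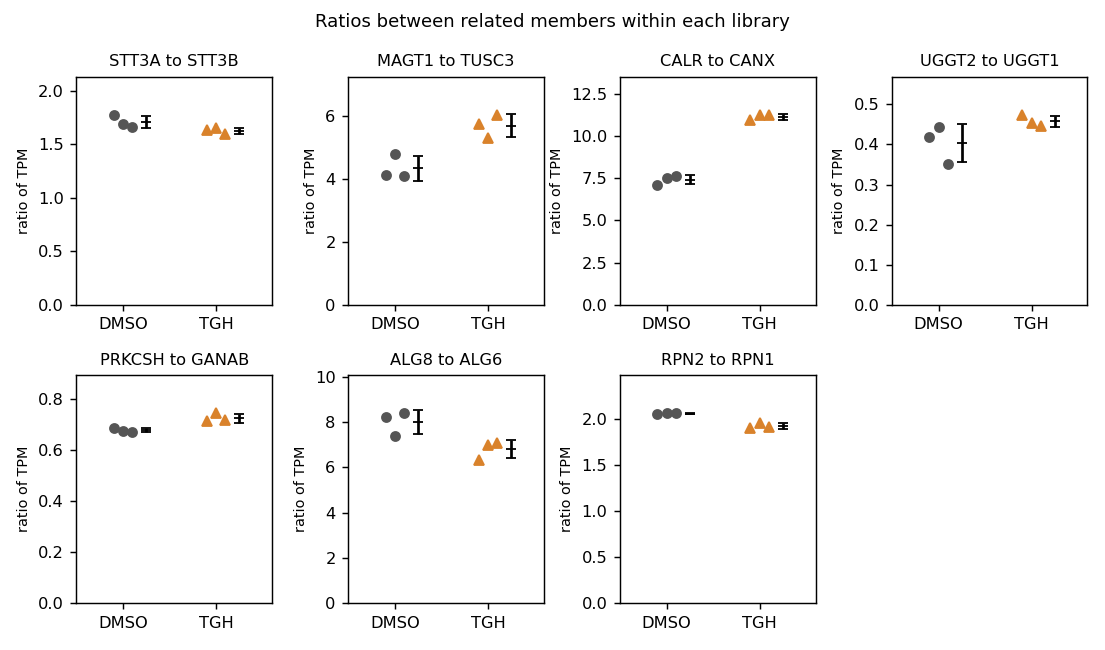
Ratio of TPM of 2 related genes within each library, 7 pairs, with DMSO as circles, TGH as triangles and the mean with its SD (n = 3) beside them, all axes from 0. CALR to CANX went from 7.43 ± 0.261 to 11.2 ± 0.177 and MAGT1 to TUSC3 from 4.33 ± 0.397 to 5.69 ± 0.367, while STT3A to STT3B differed by -0.07 on the log2 scale.

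Across genes, which are not independent replicates and share the same 6 libraries, Spearman's rho between the log2 level in DMSO and the difference was 0.07, and Pearson's r was 0.25. Among the 9 genes above 100 TPM in DMSO, CALR and CANX rose by over 0.5 and GANAB and PRKCSH were not called. STT3A, RPN1, RPN2, DDOST and DAD1, the rest of these, were called higher, by 0.24 to 0.42. By role, the median difference was 0.52 for the calnexin cycle, 0.39 for oligosaccharyltransferase and 0.36 for mannose trimming and branching. It was 0.22 for the cytosolic face, 0.20 for the lumenal face, 0.07 for the dolichol-linked donors and 0.05 for the glucosidases. These role medians rest on 3 to 9 genes each and were not compared by a test.

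A further list of 47 genes of the same pathway, none of them among the 38, had 45 with a mean of at least 1 TPM. Of these 25 were higher, 4 were lower and 16 were not called, with a median of 0.22, beside 28.9% higher and 26.3% lower among all genes. MAN1C1 and MGAT3, with means at or below 0.167 TPM in both groups, were not tested. The 3 small oligosaccharyltransferase subunits KRTCAP2, TMEM258 and OST4 rose by 0.32, 0.42 and 0.36, sizes within the range of the larger subunits. Of 9 genes that lead misfolded glycoproteins to degradation 8 were higher, with a median of 0.45, and the 3 cargo lectins LMAN1, LMAN2 and MCFD2 were higher too. Of 16 Golgi processing genes 3 were higher, 3 lower and 10 not called, with a median of 0.02.

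The largest rise of the further list was that of GMPPB, which makes GDP-mannose, the mannose donor of the pathway. It went from 28.3, 33.1 and 33.5 TPM to 71.4, 72.7 and 70.4 TPM, by 1.15 (SE 0.063, limma adjusted p = 2.2e-05). EDEM1, which takes part in glycoprotein degradation, rose by 0.93, PDIA3, the disulfide isomerase that works with calnexin and calreticulin, by 0.91 and CLGN, calmegin, a relative of calnexin, by 0.88 (limma adjusted p at or below 8.7e-06). PDIA3 went from 201.5 ± 1.51 to 379.8 ± 4.34 TPM (SD, n = 3 each). The falls were small. FUT8, which adds the core fucose, fell by 0.21 (limma adjusted p = 0.00063) and MGAT5, a branching enzyme, by 0.19 (limma adjusted p = 0.0040). PMM2, which makes mannose 1-phosphate, had -0.18 (limma adjusted p = 0.044) and B4GALT2, a galactosyltransferase, -0.09 (limma adjusted p = 0.035), but these calls were lost in 8 and 7 of 17 alternatives.

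**Figure D5:**
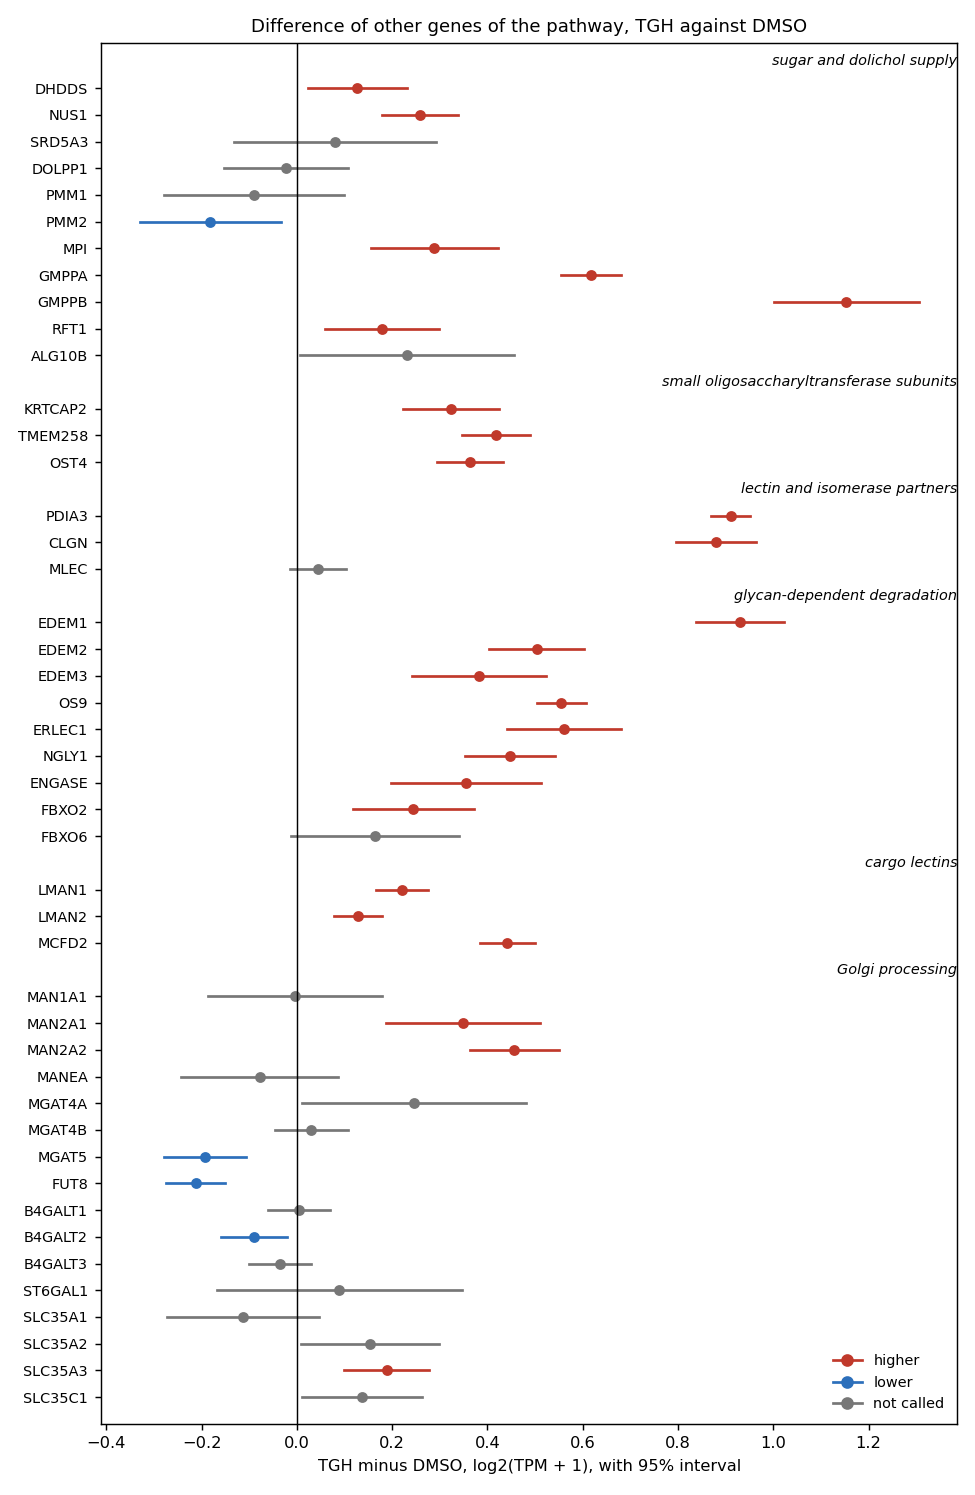
Difference between TGH and DMSO means (n = 3 each) on the log2(TPM + 1) scale for 45 further genes of the pathway, grouped by role, with the 95% interval of the limma fit and the call in colour. GMPPB lies furthest right at 1.15, and the Golgi processing genes lie on both sides of 0, from -0.21 to 0.46.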

How the data were processed

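RNA of PC-3 cells was sequenced in 6 libraries, 3 with TGH and 3 with DMSO, after removal of ribosomal RNA and with a strand-keeping kit, per the labels' protocols. The authors deposited 1 table of log2(TPM + 1) values, a gene symbol per row and a library per column (offset of 1 inferred from the smallest value, exactly 0). Per the submitters' processing notes the genome was hg19. Aligner, quantifier, annotation and use of strand in counting were not given in the sources used here. Depth is unknown. Genes averaging 1 TPM or more were kept (12018 of 18780). TGH and DMSO were compared across all of them with limma 3.58.1 in R 4.3.3 (trended variances, two-sided, Benjamini-Hochberg). Ratios of TPM were tested by exact permutation (scipy 1.17.1), and 95% intervals are limma's. The limma step was tested on simulated data. Promoters are RefSeq's, exon overlaps GENCODE 29's (GRCh38), and figures were drawn with matplotlib 3.10.9. The members, the further pathway list, the motifs and the alternatives were chosen with earlier results of these data known. The genes named are all 38 members and, of the further list, the 4 largest called rises and falls and the genes that were not tested; UTP14C, ALG10B, the other genes of small groups, FXR2 and SOX15 were named after their values or overlaps were seen. Alternatives were other pseudocounts, filters, scalings and variance models, a replicate block, zeros as missing, each library left out, and DMSO replicate 3 alone.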

Additional observations from a re-analysis of the deposited data

How the results depend on the processing

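Across 17 alternatives 27 to 29 of the 38 members were called higher, and 25 were called in every one. ALG14 (0.23, adjusted p = 0.087) and ALG9 (0.18, adjusted p = 0.066) were lost with DMSO replicate 3 as the only control. Of all 12018 genes, 3479 were called higher and 3156 lower in the reported limma fit. Median scaling gave 3083 higher and 3630 lower, quantile normalization 2964 and 3643, and the fit without TGH replicate 3 gave 2858 and 2557. Without a filter, 3879 of 18780 genes were higher and 3016 lower. The number of members called lower was 1 in the reported limma fit. It was 3 after median scaling (DOLK and GANAB besides MPDU1), 0 without a filter and 0 without the variance trend (each with 1 at an unadjusted p under 0.05), 0 with DMSO replicate 3 as the only control (0 unadjusted), and 0 to 2 when single libraries were left out (0 without DMSO replicate 1 or 3 or TGH replicate 2 or 3, with 0 or 1 unadjusted). Of the further list 2 were lower without the variance trend, and 2 to 3 when single libraries were left out, against 4. The 2 members that changed sign, both uncalled, were ALG1 and ALG13. ALG1 had -0.00059 under quantile normalization, -0.079 with DMSO replicate 3 alone, and from -0.025 (without DMSO replicate 1) to 0.10 (without DMSO replicate 3) when single libraries were left out. ALG13 had -0.0042 under quantile normalization. Deviations of same-numbered libraries correlated at 0.0088, 0.054 and 0.23 for replicates 1, 2 and 3, the last being the largest of any pair. Not every library correlated best with its own number: TGH replicate 1 did so with DMSO replicate 2 (0.096). With the replicate number as a block 27 members were higher and 1 lower, and of the further list 24 and 3. Of all 12018 genes 3273 were higher and 2958 lower in that fit. The 7 ratios kept their direction under every alternative run for them; paired by replicate number, CALR to CANX had 0.59 and STT3A to STT3B -0.07 on the log2 scale, where the exact sign-flip test cannot go below p = 0.25.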
